A study of Mus musculus with 25 samples.

Results

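The Hoxc cluster is 1 of the 4 mouse Hox gene clusters. Its members here were the 9 protein-coding genes Hoxc4, Hoxc5, Hoxc6, Hoxc8, Hoxc9, Hoxc10, Hoxc11, Hoxc12 and Hoxc13, taken by symbol, out of 20665 autosomal protein-coding gene records and 39 Hox genes. They lie on chromosome 15 between 102921131 and 103036856 (mouse build mm10), a span of 115.7 kb. All 9 had a record. The rule takes them by name and uses no measured value, but the cluster was picked with earlier results of these data known. The measurement was the position of peaks of H3K27me3, trimethylation of lysine 27 on histone H3, in 3 deposited peak lists, 1 for each of 3 cell systems.

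The study comprised 25 libraries in 13 groups, 18 of them made with an H3K27me3 antibody. The first system was wild-type neural progenitor cells made from embryonic stem cells (NPC), profiled by CUT&RUN, in which an antibody guides a nuclease to cut marked chromatin out of permeabilized cells. They were untreated, exposed to UNC1999 (2 uM) with A395 (4 uM), both inhibitors of PRC2, or washed free of both, with 2 libraries each. The other systems were 2 lines (A and B) of mouse embryonic fibroblasts (MEF) immortalized with c-myc, profiled by ChIP-seq as wild type, Ezh2 -/- and with Ezh2 restored, with 2 libraries each. Rescue used retroviral pMSCV-Ezh2 in line A. In line B the loss is labelled reversible and the rescue endogenous. All the MEF groups carry c-myc immortalization, and each line is 1 line. The other 7 libraries (an input, RNA polymerase II, H3K4me3 and H3K36me3), labelled line A Ezh2 -/-, were not analysed here.

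The 3 lists give the start and end of each peak and no height, so the depth behind a peak is unknown. The list of line A holds 86235 peaks, that of line B 81972 and that of NPC 44807. Their total lengths are 276224588 bp, 235693345 bp and 136930971 bp. Each MEF list carries in its name those of H3K27me3 libraries that the labels give as wild type and Ezh2 -/- in that line, and the sources used here do not say which libraries entered the calls, or how. Ezh2 loss, Ezh2 rescue, inhibition and washout were therefore not compared at the cluster. No difference between lists has a replicate check, and none was tested. The MEF and NPC lists differ in assay, in total peak length and in cell type, and these cannot be told apart. A position outside a peak shows only that no peak was called there.

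The lists were first set against markers of the labelled cells. H3K27me3 marks silenced genes, so a peak at a marker is given as a position only. Of 8 neural progenitor markers, line A had a peak within 5 kb of 5 records, line B of 6 and NPC of 1 (Msi1, an RNA-binding protein gene, with 9.06 kb). Of 9 fibroblast markers, line A had a peak at 1, line B at 0 and NPC at 2. The NPC peaks lay at Pdgfrb, a growth factor receptor gene of mesenchymal cells (28.9 kb), and Fn1, the fibronectin gene (0.704 kb). Of 4 pluripotency markers, 2 had a peak in each list. Of 4 neuron markers, 3 had one in line A and 2 in each of the others. As background, line A had such a peak at 40.2% of all genes, line B at 40.9% and NPC at 31.9%. The marker counts are small and were not tested against these shares.

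Hox genes encode homeodomain transcription factors that give cells their position along the head-to-tail axis and along the limb. Within a cluster their order on the chromosome follows the order in which they act, from anterior (low numbers) to posterior (high numbers), and genes with the same number in different clusters are called paralogs. Polycomb repressive complex 2 (PRC2), with Ezh2 as its methyltransferase, places H3K27me3, and the Hox clusters are classical targets that carry it over the members that a cell keeps silent. All 9 Hoxc genes are transcribed in the direction from Hoxc13 toward Hoxc4. The end of a record that faces Hoxc13 is therefore its 5′ end, and is called the facing end here.

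H3K27me3 peaks covered the Hoxc13 end of the cluster in all 3 cell systems, and the last peak edge lay at a different position in each. Peaks reached to just before Hoxc9 in line A, to the facing end of Hoxc11 in line B, and to Hoxc12 with smaller peaks as far as the interval between Hoxc11 and Hoxc10 in NPC. Hoxc8, Hoxc6, Hoxc5 and Hoxc4 had no peak on the record or within 5 kb in any list. Cover of the cluster came to 53.5 kb (46.3%) from 2 peaks in line A, 32.0 kb (27.6%) from 2 peaks in line B and 22.3 kb (19.3%) from 4 peaks in NPC.

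**Figure D1:**
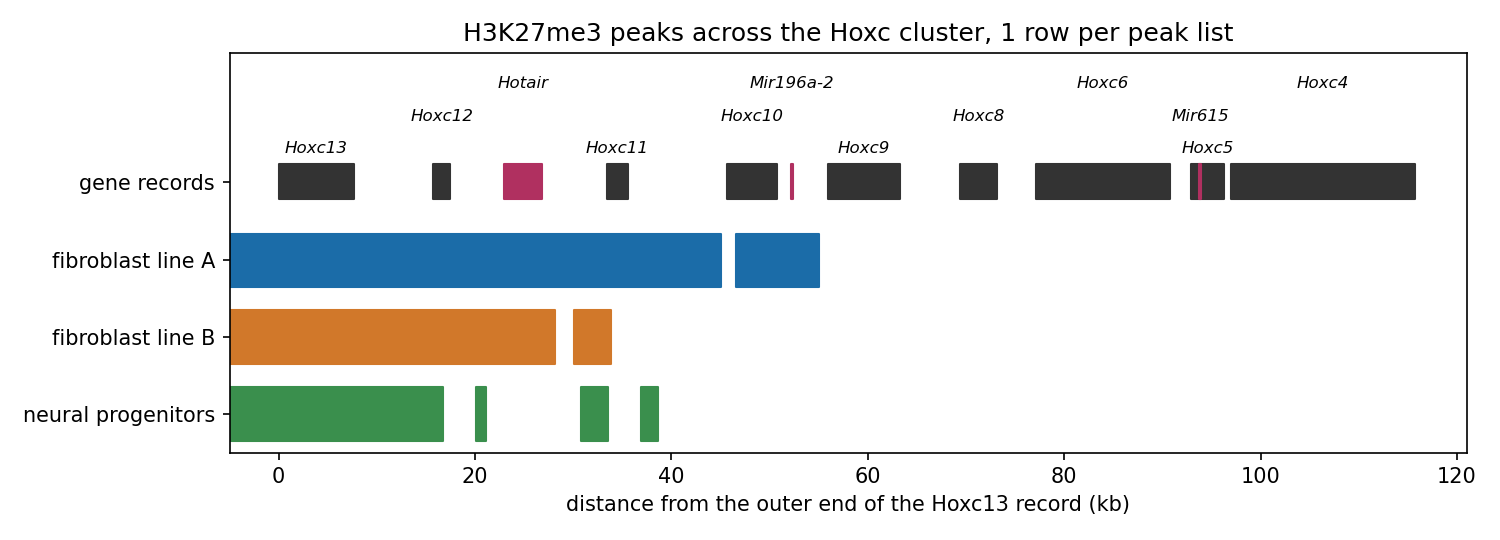
Gene records (black, protein-coding; red, non-coding) and H3K27me3 peaks (coloured bars, 1 row per list) across the Hoxc cluster, by distance in kb from the outer end of the Hoxc13 record. The last peak edge lies 55.1 kb into the cluster in line A, 33.9 kb in line B and, in the NPC list, 38.6 kb, and no bar lies over Hoxc8 to Hoxc4.

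Hoxc13, which acts in hair follicles and nails and controls hair keratin genes, was covered in full in every list. Its record (NCBI gene 15422, 102921131 to 102928814) and the 5 kb on either side make a window of 17.7 kb, and peaks covered 100% of it in line A, line B and NPC. In each list 1 unbroken peak spanned the record and ran on beyond it. The peak was 119.3 kb wide in line A (102846877 to 102966214), 55.2 kb in line B (102894101 to 102949298) and 43.0 kb in NPC (102894814 to 102937855). By width these ranked 5 of 86235, 146 of 81972 and 160 of 44807 peaks in their lists. A whole covered window was found for 0.736% of all genes with the line A peaks, 1.2% with those of line B and 0.474% with those of NPC. In all 3 lists at once it was found for 14 genes (0.0677%), and Hoxc13 is the only Hox gene among them.

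Hoxc12, a posterior gene next to Hoxc13, was covered in full in both fibroblast lines and in part in NPC. Its record (gene 15421, 102936826 to 102938609) is 1784 bp long and its window 11.8 kb. Line A and line B peaks covered 100% of the window and NPC peaks 60.4%. The wide NPC peak ended inside the record, 1029 bp past its facing end, so that the first 57.7% of the record was covered. An NPC peak of 1087 bp lay farther on, between Hoxc12 and Hotair (102941187 to 102942273). The 8.01 kb between Hoxc13 and Hoxc12 were covered over 100% in each list.

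Hotair, a long non-coding RNA gene transcribed antisense to its Hox neighbours, lies between Hoxc12 and Hoxc11 (gene 100503872, 102944062 to 102947946). Its record was covered over 100% in both fibroblast lines and 0% in NPC. In NPC it lay whole in a stretch of 9.61 kb without a peak (102942274 to 102951887). Of the 15.9 kb between Hoxc12 and Hoxc11, line A covered 100%, line B 88.0% and NPC 23.4%. The line B share falls short through a gap of 1903 bp (102949299 to 102951201) on the Hoxc11 side of Hotair.

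Hoxc11, which with its paralogs patterns the lumbosacral spine, hindlimb and kidney, was covered in full in line A and in part in line B and NPC. Its record (gene 109663, 102954526 to 102956701) and window of 12.2 kb were covered over 100% in line A. In line B 31.4% of the window and 22.8% of the record were covered, and in NPC 37.2% and 5.84%. In line B and NPC alike the cover came from a short peak that lay before the facing end and ran just past it. The line B peak (102951202 to 102955021, 3.82 kb) ended 495 bp inside the record and the NPC peak (102951888 to 102954652, 2765 bp) 126 bp inside it. The starts of these peaks lay 686 bp apart and their ends 369 bp apart. The wide peaks over Hoxc13 also began close together in these 2 lists, 713 bp apart, while that of line A began 47.2 kb farther out than that of line B. The nearness of the line B and NPC starts did not hold with peaks less than 3 kb apart joined. The joined block then began at 102879687 in NPC and at 102894101 in line B. NPC had 1 more peak between Hoxc11 and Hoxc10 (102957981 to 102959750, 1770 bp), the last in the cluster in that list. This peak is the part of the NPC cover that line B lacked.

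Hoxc10, a gene of the lumbar spinal cord and hindlimb, was covered in line A alone, on the record and within 5 kb. Line A peaks covered 12.9 kb of its window of 15.1 kb (85.3%) and 81.6% of its record (gene 209448, 102966796 to 102971898), against 0% in line B and NPC. The single gap of the line A list in the cluster lay over the facing end of Hoxc10. The wide peak ended 582 bp before the facing end and the next peak (102967736 to 102976200, 8.46 kb) began 940 bp inside the record, which gives a gap of 1521 bp. The smallest gap between peaks anywhere in that list is 773 bp.

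Between Hoxc10 and Hoxc9 lies Mir196a-2 (102973350 to 102973434), a microRNA gene whose product is known to target Hox transcripts. MicroRNAs recognise their targets mainly by the seed, bases 2 to 8. The mature sequences are printed because 3 Hox clusters hold a gene of this family and the lists differ at these loci. They come from RefSeq on GRCm38.p6, the assembly of mm10, 5′ to 3′ with the seed in capitals.
miR-196a-5p from Mir196a-2 (Hoxc cluster): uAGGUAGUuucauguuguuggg
miR-196a-5p from Mir196a-1 (Hoxb cluster): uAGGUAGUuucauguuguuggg
miR-196b-5p from Mir196b (Hoxa cluster): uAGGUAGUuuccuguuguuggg
The Hoxc and Hoxb genes give the same mature sequence of 22 bases, and that of the Hoxa gene differs by 1 base outside the seed (A12C, counted from the 5′ end of miR-196a-5p). Over Mir196a-2, peaks covered the whole 85 bp record in line A and none of it in line B and NPC. Over Mir196b on chromosome 6 (52230081 to 52230165) the pattern was the same, with 100%, 0% and 0%. Over Mir196a-1 on chromosome 11 (96265164 to 96265265) cover was 100% in both fibroblast lines and 0% in NPC. NPC peaks thus covered none of these 3 loci. Line A peaks covered each of them.

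Hoxc9, which sets the identity of thoracic motor neurons, was the last member with a peak in its window. Line A peaks covered 4.17 kb of the 17.4 kb window (23.9%) and 0% of the record (gene 15427, 102977032 to 102984444), since the second line A peak ended 832 bp before the facing end. In line B and NPC cover of the window was 0%. The Hoxc10 to Hoxc9 interval of 5.13 kb was covered over 83.8% in line A.

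Hoxc8 (brachial motor neurons and ribs), Hoxc6 (the transition from neck to thorax), Hoxc5 and Hoxc4 (neck and forelimb levels) had 0 bp covered in each list, over windows of 13.7, 23.7, 13.4 and 28.8 kb. No peak within 5 kb in any list was also found for 9261 of all genes (44.8%), so it is common. Mir615, a microRNA gene inside the Hoxc5 record, lay in the same stretch without a peak, with 0% covered in each list. Its mature products are printed as the second microRNA of the cluster, with seeds unlike that of miR-196a-5p.
miR-615-3p from Mir615 (Hoxc cluster): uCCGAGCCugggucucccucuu
miR-615-5p from Mir615 (Hoxc cluster): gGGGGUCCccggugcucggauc

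**Figure D2:**
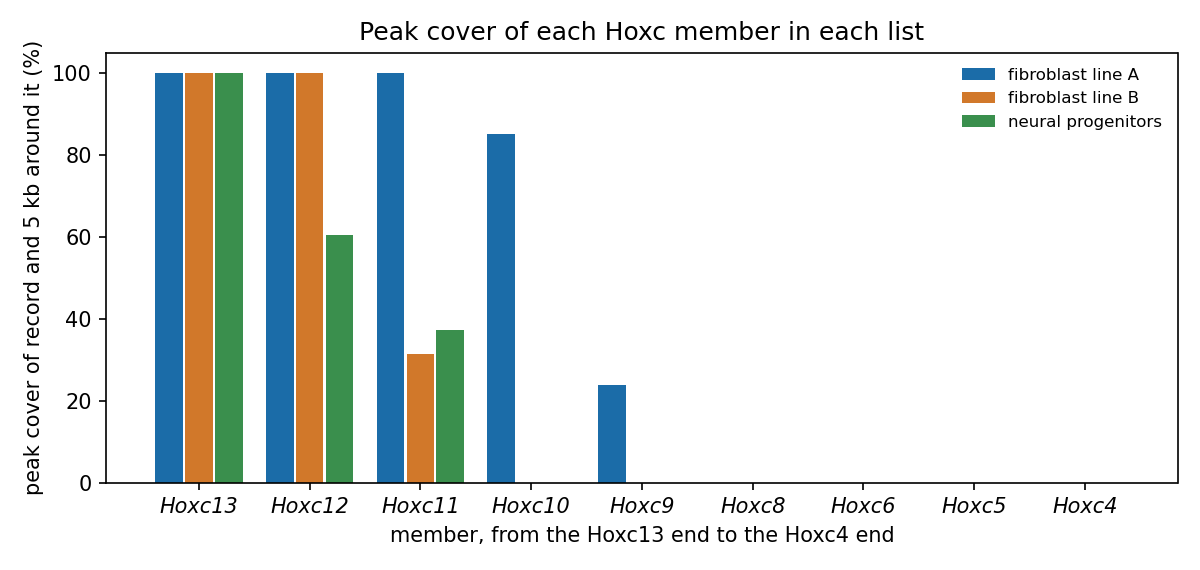
Share of each member's window (record and 5 kb on either side) covered by H3K27me3 peaks, in percent, with 1 bar per list and members in chromosome order. Hoxc13 stands at 100% in each list, Hoxc12 at 60.4% and Hoxc11 at 37.2% in NPC, Hoxc10 and Hoxc9 have a bar in line A alone, and the last 4 members have none.

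Counted over the 9 members, line A had a peak within 5 kb of 5 (55.6%, against 40.2% of all genes), line B of 3 (33.3%, against 40.9%) and NPC of 3 (33.3%, against 31.9%). Hoxc11, Hoxc12 and Hoxc13 had one in all 3 lists, as had 19.5% of all genes. The line B and NPC shares lie near or below the background, so the count of members with a peak sets the cluster apart in neither. The line A share lies above the background, a difference that was not tested and that rests on 2 peaks. The share of members covered over the whole record was above that of all genes in each list, a difference that was not tested. The members covered whole have records of 7684 bp (Hoxc13), 1784 bp (Hoxc12) and 2176 bp (Hoxc11). A short record is more easily covered whole, and the shares were not matched for record length. In line A the whole record was covered at 3 members (33.3%, against 2.44% of all genes), in line B at 2 (22.2%, against 2.94%) and in NPC at 1 (11.1%, against 1.61%). The median share of the window covered over the members was 23.9% for line A and 0% for the other lists, and over all genes it was 0% in each list. Neighbouring members share peaks, and 1 peak in each list gave most of these counts, so the members are not independent.

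Within the cluster the line B and NPC peaks lay inside those of line A. The lists rank in the same order by cover of the cluster and by total peak length, a relation that was not tested. Of the cluster length covered in line B, 100% was also covered in line A, and line B held 59.7% of the line A length. Of the NPC length, line A covered 100% and line B 92.1%, and NPC held 41.7% of the line A and 64.3% of the line B length. All 3 lists together covered 20.6 kb (17.8% of the cluster), both MEF lines without NPC 11.4 kb (9.86%), line A with NPC 1.77 kb (1.53%) and line A alone 19.8 kb (17.1%). No base was covered in line B or NPC outside the line A peaks, and 62.2 kb (53.7%) was covered in none. Members with a peak within 5 kb in line B that lacked one in line A numbered 0, against 8.99% of all genes, and those with one in NPC that lacked one in line A numbered 0 as well, against 8.68%. Between line B and NPC, 0 members had a peak in the first list alone or in the second alone, against 18.7% and 9.71% of all genes. Hoxc10 and Hoxc9 had one in line A and lacked it in line B, as did 8.28% of all genes. They lacked it in NPC too, against 17% of all genes with a peak in line A and none in NPC.

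Beyond Hoxc13 the cover went on through a region without protein-coding genes. The nearest protein-coding record on that side, Calcoco1, a coactivator and autophagy receptor gene, lies 199.0 kb away, followed by Atp5g2 and Atf7, and each had 0 kb covered in each list. Of the 200 kb next to Hoxc13, cover was 81.3% for line A, 61.7% for line B and 59.1% for NPC. The first peak in this stretch began 191.5 kb from Hoxc13 in line A, 180.2 kb in line B and, in the NPC list, 192.7 kb. Line A held 7 peaks there, line B 17 and NPC 16, and all 3 lists shared 82.9 kb. As inside the cluster, line B peaks lay within those of line A, over 99.8% of their length. NPC peaks did so over 86.0% of theirs, so the nesting of NPC in line A was not complete outside the cluster.

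Beyond Hoxc4 little was covered. Of the 200 kb on that side, cover was 1.53% for line A, 2.87% for line B and 1.16% for NPC. The next peak lay 109.6 kb beyond the Hoxc4 record in line A (316 bp wide), 106.0 kb in line B (5737 bp) and 45.8 kb in NPC (2325 bp). Counted from the last peak of the cluster, the stretch without a peak measured 170.2 kb in line A, 187.9 kb in line B and, in the NPC list, 122.9 kb. The nearest protein-coding genes on this side were Smug1, a DNA repair glycosylase gene 116.4 kb away, Cbx5, which encodes the heterochromatin protein HP1 alpha, and Hnrnpa1, an RNA-binding protein gene. Cover within 5 kb of them was 0 kb in each list, other than 0.331 kb at Smug1 in line B.

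**Figure D3:**
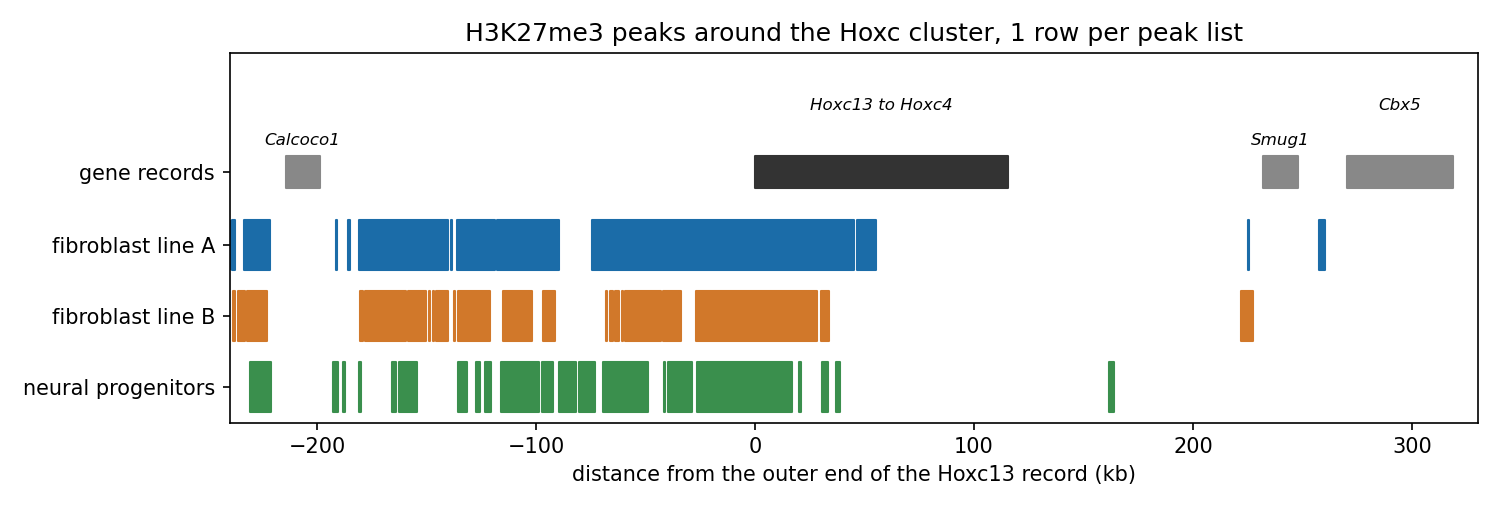
Protein-coding records (grey; the Hoxc cluster as 1 black bar) and H3K27me3 peaks (coloured bars, 1 row per list) around the cluster, by distance in kb from the outer end of the Hoxc13 record. Peaks fill 59.1 to 81.3% of the 200 kb to the left of the cluster and 1.16 to 2.87% of the 200 kb to its right.

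Hoxc4 is the one member for which a promoter sequence was at hand, from RefSeq on GRCm38.p6. It is shown as a promoter of the end of the cluster where no peak was called. Its start (103034395, plus strand) lay 58.2 kb from the nearest peak edge in line A, 79.4 kb in line B and, in the NPC list, 48.3 kb. This start lies inside the Hoxc4 record (103018097 to 103036856) and not at its facing end. The sequence is therefore not that of the 5′ end of the record. The 250 bases before the start, chr15:103034145-103034394 on the plus strand, are printed with CpG dinucleotides in capitals, which CpG islands at Hox genes hold in large number.
Hoxc4 promoter: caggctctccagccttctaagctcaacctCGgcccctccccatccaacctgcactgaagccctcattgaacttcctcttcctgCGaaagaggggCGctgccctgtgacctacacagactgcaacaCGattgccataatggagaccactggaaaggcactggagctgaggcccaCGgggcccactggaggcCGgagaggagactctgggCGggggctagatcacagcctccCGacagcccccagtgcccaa
In these bases and the 50 that follow, GC content was 60.3%, against a median of 52.7% over 32851 promoters of the same length. The window held 9 CpG dinucleotides (median 7), which is 0.333 of the number its base composition gives (median 0.384). On either strand it held 2 matches to GAGAG, which 62% of all promoters hold, and 0 to AANATGGC (6.05%), to the CTCF core motif (3.43%) and to TATAAA (13.6%). The match is a description of letters and not of a binding site.

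Set beside the other Hox clusters, Hoxc was the cluster with the most NPC cover. NPC peaks covered 19.3% of Hoxc, 10.4% of Hoxb, 0.287% of Hoxa and 0% of Hoxd. In line A, Hoxb had more cover (71.3%) than Hoxc (46.3%), and Hoxa (34.7%) and Hoxd (26.5%) had less. In line B the order was Hoxb (96.8%), Hoxd (35.6%), Hoxc (27.6%) and Hoxa (0%). These are single values with no spread, and the differences were not tested.

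Among the paralogs of group 13, NPC peaks covered 100% of the Hoxc13 window, 58.0% of that of Hoxb13, 36.6% of that of Hoxa13 and 20.8% of that of Hoxd13. At group 12, NPC peaks covered 60.4% at Hoxc12 and 0% at Hoxd12, and at group 11 37.2% at Hoxc11 and 0% at Hoxa11 and Hoxd11. In line A the group 9 windows were covered over 23.9% at Hoxc9, 24.1% at Hoxd9, 61.2% at Hoxa9 and 100% at Hoxb9. At group 10 the line A values were 85.3% at Hoxc10, 74.5% at Hoxd10 and 100% at Hoxa10. Line B departed from line A in opposite ways in these clusters, with 0% at Hoxc10 and Hoxa10 and 85.3% at Hoxd10.

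The inner edge of the block that starts at group 13 was placed in Hoxa, Hoxc and Hoxd alone, with gaps under 3 kb between peaks closed. It was not placed in Hoxb. There line A cover went past group 9, with 100% of each window from Hoxb9 to Hoxb6 and 97.7% at Hoxb5. In Hoxa, Hoxc and Hoxd the inner edge of line A lay near the group 9 gene. It lay 832 bp before the facing end of Hoxc9, 2001 bp before that of Hoxd9 and 3729 bp past that of Hoxa9. In line B it lay 495 bp past the facing end of Hoxc11 and 1880 bp past that of Hoxd9, and Hoxa13 had no peak on its record. In NPC it lay 1029 bp past the facing end of Hoxc12 and 2102 bp past that of Hoxa13, and Hoxd13 had no peak on its record. The Hoxa13 edge rests on little cover, since NPC peaks covered 11.2% of that record and 0.303 kb of the Hoxa cluster. The gap after the Hoxc12 edge measured 3.33 kb, just above the limit for closing.

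**Figure D4:**
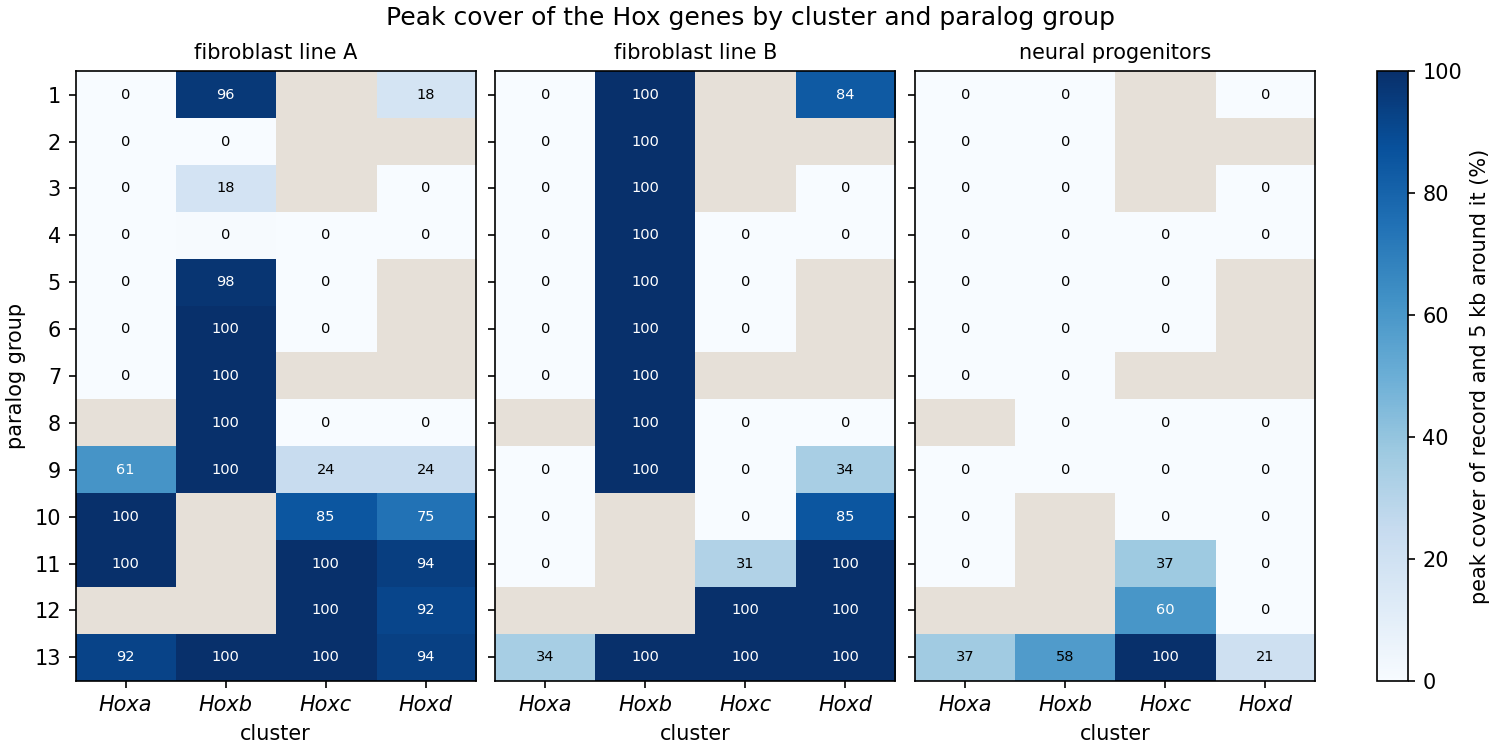
Share of the window (record and 5 kb on either side) covered by H3K27me3 peaks for the 39 Hox genes, in percent, by cluster (columns) and paralog group (rows), with 1 panel per list. Beige cells have no gene. In the Hoxc column cover is 100% at group 13 in each panel and 0% from group 8 to group 4.

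Cofactors and regulators of the Hox genes were read in the same lists. The TALE homeodomain proteins (Pbx, Meis and Pknox) bind DNA together with Hox proteins. Line A had a peak within 5 kb of 2 of their 9 genes, line B of 4 and NPC of 1. Such a peak was found for 40.2%, 40.9% and 31.9% of all genes. Over the 9 genes the median share of the window covered was 0% in each list, as over all genes. Meis3 had a peak in all 3 lists (12.1, 8.94 and 8.98 kb), and Pknox2 had 69.2 kb covered in line B, 0.551 kb in line A and 0 kb in NPC. The other line B cover was small, with 0.573 kb at Meis1 and 0.281 kb at Meis2. Of the 4 genes Cdx1, Cdx2, Evx1 and Evx2, homeobox genes that act upstream of or next to Hox clusters, 3 had a peak in each list. The shares over all genes are those given above. Cdx2 was covered over 16.4 kb in both fibroblast lines and 3.14 kb in NPC. Evx2, the neighbour of Hoxd13, was covered over 17.4, 18.5 and 3.72 kb. Cdx1 was covered in NPC (18.0 kb) and not in the MEF lines. Evx1 was covered in the MEF lines (14.9 kb in each) and not in NPC.

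Genes outside the cluster with the most similar cover were sought by the sum, over the 3 lists, of the absolute difference in the share of the window covered. For Hoxc12 these were Gngt1, a transducin subunit gene (0.433 percentage points), Hoxb13 (2.40) and Bcl2a1c (4.11). For Hoxc11 they included Hoxa13 (11.4) and Hand2, a factor of heart and limb (17.6). For Hoxc10 they were Sh2d4a (0.661), Krtap4-8 (1.13) and Ccdc121 (3.02), each with cover in line A alone. For Hoxc9 they were Lama5, Cyp2d12 and Lipc, with sums of at most 0.0474 percentage points. The likeness rests on 3 values a gene.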

How the data were processed

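Per the labels' protocols, NPC were profiled with CUT&RUN and MEF with ChIP-seq. The deposited files were 3 peak lists with chromosome, start and end, not split by sample. Tools named in the submitters' processing notes, without their roles, are MACS2 2.1.1.20160309, deepTools, DESeq2, Bowtie2 2.2.9 and Picard; the builds named are dm6 and mm10. Peak threshold, control and pooling were not given in the sources used here. Depth is unknown, as neither reads nor coverage were analysed. The BED starts count from 0 and are printed counting from 1.

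Samples were grouped by title or source name. Gene records came from RefSeq on GRCm38.p6, without strand or exons, so exons, introns and UTRs were not told apart. Covered base pairs were summed over each record and 5 kb around it, with 1 bp as the smallest overlap (Python 3.11.15, numpy 2.4.6). A promoter entry matched 1 of 9 members, Hoxc4. The sums were tested on simulated data.

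The genes named were the members, the Hotair and microRNA records among them (predicted genes left out), the nearest 3 protein-coding records on each side, the other Hox genes, 2 lists of cofactors and regulators, the markers, and up to 3 genes most like each partly covered member (1 to 99% in some list), predicted genes left out. Of these last genes, 1 is not reported here. The members and lists were chosen with earlier results of these data known. Alternatives were other windows, wider peaks and joined peaks. No test was run, since no list has replicates.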

Additional observations from a re-analysis of the deposited data

How the results depend on the processing

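The number of members with a peak stayed within 1.5 times its value in each list under 7 alternatives, with 4 to 5 in line A, 2 to 3 in line B and 2 to 4 in NPC. The last peak edge toward Hoxc4 stayed at 55.1, 33.9 and 38.6 kb with wide peaks alone or with peaks joined. The share of the cluster covered moved by more than its counting interval with 5 kb added at each end (46.6% in line A, 29.4% in line B, 21.8% in NPC), with peaks less than 3 kb apart joined (47.6% in line A, 29.3% in line B) and with peaks at least as wide as the median of their list (18.4% in NPC). The order of the lists held in each of these. That interval treats base pairs as independent, which they are not. With 10 kb around the record, NPC peaks covered 7.05% of the Hoxc10 window, so cover in line A alone did not hold there. The Hoxc11 window was then covered over 38.7% in line B and 20.45% in NPC, the reverse of the order with 5 kb. The window of 2 kb around the gene start was not run, since a promoter start was at hand for 1 member. Leaving out a replicate was not possible. No paired analysis was possible because the peak lists are not split by replicate. The depth of the libraries sets how far a list can show weak cover, and it is unknown.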

Other observations

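The 14 genes whose window of record and 5 kb was covered in full in all 3 lists, of which Hoxc13 is 1, were listed after their values were seen. The other 13, in chromosome order, were the olfactory receptor genes Olfr1412 and Olfr1411, the transcription factor genes Prdm12, Neurog2 and Uncx, the hormone gene Pth2, the transcription factor genes Bsx, Foxb1 and Neurod2, the lysozyme-like gene Lyzl6, the transcription factor genes Otp and Isl1, and the protease gene Prss34. No kind of gene was tested for enrichment among them. Windows ranged from 10.97 kb at Olfr1412 to 30.8 kb at Prdm12, and that of Hoxc13 measured 17.7 kb.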
